A study of Mus musculus with 6 samples.

Results

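Evc, Evc2, Rab34, Smo, Ptch1, Sufu, Gli1, Gli2, Gli3 and Kif7, 10 genes of Hedgehog signalling through the primary cilium, were followed by RNA sequencing in blood stem and progenitor cells lacking Asxl2. They are 10 of the 24063 gene symbols in the count files, and 8 of them had enough counts to be among the 14145 genes fitted. Evc and Rab34 were chosen from measured values, because they stood 1st and 4th when 241 raised genes were ordered by p-value in the same contrast, and Evc2 was added after its values had been seen. The 241 genes had passed an adjusted p of 0.05, differed by a log2 fold change of 1 or more and were higher in Asxl2-/- cells whether the transcript-wise or the exon-wise count files were read. The choice was made from the first 5 of that order, so the last gene inside was Obsl1 (log2 fold change 4.45) and the first outside was Fkbp10 (3.78), while Evc2 stood 27th. For Evc, Evc2 and Rab34 the difference between genotypes is therefore a description and carries no test. The other 7 genes were added for their role in the pathway.

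The cells were LSK cells, the fraction of bone marrow that lacks lineage markers and carries Sca-1 and c-Kit, sorted from 3 Asxl2-/- and 3 wild type C57BL/6 mice after pIpC injection. All 6 mice carried Mx1-cre, a Cre recombinase under an interferon-responsive promoter that pIpC, a double-stranded RNA, switches on in blood cells and in other interferon-responsive tissues. Both alleles of Asxl2 were floxed around exon 11 in the Asxl2-/- mice, and the study places the harvest weeks after pIpC, with no age of the mice given in the sources used here. The 10 LSK markers examined, among them Kit, Ly6a and Flt3, were well above 0 in every library, with summed levels of 1687 to 2074 CPM (counts scaled to a common, normalised library size) in Asxl2-/- and 1550 to 1718 CPM in wild type cells.

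Some properties of the libraries bear on all values below. Asxl2-/- replicates 1 and 3 and wild type replicate 2 were deposited with 1 count per transcript (gene-count files, 25528540 to 29136012 counts in all), and Asxl2-/- replicate 2 and wild type replicates 1 and 3 with 1 count per exon (exon-count files, 53147729 to 55032075 counts), where a spliced read is counted in each exon it touches. Levels are therefore best compared within a kind of file, and every fitted value has the kind of file as a covariate. In the exon-count files, exon 11 held 0.583% of the Asxl2 counts in Asxl2-/- replicate 2 (28 of 4804, Wilson 95% interval 0.404 to 0.841) and 10.3% and 11.98% in wild type replicates 1 and 3. The other 2 Asxl2-/- libraries could not be checked in this way. All 4 Y-linked genes examined had 0 to 2 counts in the Asxl2-/- libraries and 1026 to 4807 in the wild type libraries, and Xist had 49540 to 66689 against 590 to 3194, so genotype and sex cannot be told apart in any comparison here. In bulk RNA, more cells that express a gene and more RNA of that gene per cell cannot be told apart either.

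In most vertebrate cells Hedgehog ligands are read at the primary cilium, a single antenna built on the mother centriole. Without ligand, the receptor Ptch1 keeps the transducer Smo out of the cilium, Sufu and the kinesin Kif7 hold the Gli transcription factors in check, and Gli2 and Gli3 are partly cut into repressors. With ligand, Smo enters the cilium and binds the complex of Evc and Evc2 near its base, Gli activators form, and Gli1 and Ptch1 are themselves transcribed as targets. Rab34 is a small GTPase that acts when the ciliary membrane is first assembled, and it has also been linked to lysosome position and macropinocytosis. Blood cells are known for having few or no primary cilia. Loss of EVC or EVC2 in people causes Ellis-van Creveld syndrome, a disorder of cartilage, bone and teeth.

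Evc and Evc2 lie head to head on chromosome 5, and their annotated starts are 1596 bases apart, Evc on the minus and Evc2 on the plus strand. The 250 bases before the start of each gene are shown because both genes moved together and face each other across this gap. Capitals in the first pair mark the longest run of letters that the windows of Evc and Evc2 share, 13 bases, which reads on opposite strands. The windows of Rab34 and Smo follow for comparison. All are RefSeq sequence on GRCm38.p6, the patched assembly of the mm10 build used for the counts, written 5′ to 3′ on the strand of the gene: chr5:37336882-37337131 on the minus strand for Evc, chr5:37338228-37338477 on the plus strand for Evc2, chr11:78188498-78188747 on the plus strand for Rab34 and chr6:29735247-29735496 on the plus strand for Smo.
Evc: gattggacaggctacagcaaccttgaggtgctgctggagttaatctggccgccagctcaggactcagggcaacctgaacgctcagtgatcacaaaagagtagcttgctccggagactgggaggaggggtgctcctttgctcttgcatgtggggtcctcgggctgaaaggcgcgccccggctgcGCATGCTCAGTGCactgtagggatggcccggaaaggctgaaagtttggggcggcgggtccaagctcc
Evc2: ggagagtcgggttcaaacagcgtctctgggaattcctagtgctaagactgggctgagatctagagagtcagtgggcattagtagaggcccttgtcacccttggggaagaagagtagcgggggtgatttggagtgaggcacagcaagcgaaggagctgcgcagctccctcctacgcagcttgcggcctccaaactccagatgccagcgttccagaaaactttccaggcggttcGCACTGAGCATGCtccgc
Rab34: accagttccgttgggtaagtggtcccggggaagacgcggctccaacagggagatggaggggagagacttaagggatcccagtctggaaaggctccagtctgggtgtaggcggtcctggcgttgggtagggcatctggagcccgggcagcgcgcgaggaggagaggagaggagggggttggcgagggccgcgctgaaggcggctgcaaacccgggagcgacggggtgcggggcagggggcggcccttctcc
Smo: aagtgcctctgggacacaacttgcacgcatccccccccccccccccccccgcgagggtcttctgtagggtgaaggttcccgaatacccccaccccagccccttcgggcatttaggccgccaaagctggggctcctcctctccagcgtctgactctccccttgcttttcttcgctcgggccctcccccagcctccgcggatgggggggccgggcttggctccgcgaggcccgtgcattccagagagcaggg
The shared run begins 67 bases before the start of Evc and 18 bases before the start of Evc2, and it occurs on either strand in 10 of the 32851 promoter windows of the RefSeq table (0.0304%), each running from 250 bases before to 50 bases after a start. The run was picked from the windows of Evc and Evc2, so both are among those with it. How often any windows share a run this long was not counted. Of the 10 genes followed here, 9 had at least 1 window in the RefSeq table, with Gli1 not in it. The letters GACCACCCA, bound by Gli factors, were searched on both strands, stood in 83 windows (0.253%) and were not in those of the 9 genes. TGTGGT, bound by Runx factors, stood in 5506 windows (16.8%) and among the 9 genes only in that of Gli3. GTTGCC, part of the X-box bound by the Rfx factors of ciliated cells, stood in 4111 windows (12.5%) and among these genes only in that of Evc, 183 bases before its start. CG pairs numbered 16 in the window of Evc, 19 in that of Evc2, 25 in the printed window of Rab34 when its 50 bases after the start are included and 17 in that of Smo, against a median of 7 over all windows. The other window of Rab34 held 13. The remaining members had 47 (Ptch1), 39 (Gli3), 31 (Kif7), 28 (Gli2) and 12 (Sufu), so a count above the median is not particular to the raised genes. Letter matches of this kind are descriptions and show no binding.

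Evc and Evc2, the partners of the ciliary EvC complex, were close to absent from the wild type cells and were present in all 3 Asxl2-/- libraries. Evc (NM_021292, chromosome 5, 37299171 to 37336881 on mm10, 21 exons) was counted 189, 803 and 235 times in Asxl2-/- libraries 1 to 3, and 20, 5 and 20 times in wild type libraries 1 to 3. Scaled to library size, these were 6.71, 15.1 and 8.28 CPM against 0.384, 0.174 and 0.422 CPM. The groups did not overlap, and the lowest Asxl2-/- library was far above the highest wild type library. On the log2 CPM scale with the effect of file kind removed, the level was 3.41 ± 0.15 (SD, n = 3) in Asxl2-/- and -1.65 ± 0.061 (SD, n = 3) in wild type cells. The fitted log2 fold change was 5.28 (SE 0.226), a 38.8-fold difference. Removing the file kind uses the same 6 libraries, which makes these SDs somewhat too small.

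The partner gene behaved alike. Evc2 (NM_145920, chromosome 5, 37338478 to 37425054, 20 exons) had 169, 749 and 238 counts in the Asxl2-/- and 22, 6 and 4 in the wild type libraries, in replicate order. These came to 6.00, 14.1 and 8.39 CPM against 0.422, 0.208 and 0.0844 CPM. Again the groups did not overlap, and the wild type values differed among themselves more than those of Evc did. On the same log2 CPM scale Evc2 stood at 3.24 ± 0.38 in Asxl2-/- and -2.05 ± 0.95 in wild type cells (SD, n = 3 each), and the fitted log2 fold change was 5.53 (SE 0.547, 46.1-fold). In wild type replicate 3 the 4 counts of Evc2 were just above the 3 counts (0.0633 CPM) taken as the smallest signal that library could show.

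Rab34 (NM_033475, chromosome 11, 78188748 to 78192193, 10 exons), the GTPase of early ciliary membrane assembly, was counted 415, 985 and 338 times in Asxl2-/- libraries 1 to 3, and 99, 20 and 59 times in wild type libraries 1 to 3. The levels were 14.7, 18.5 and 11.9 CPM against 1.90, 0.695 and 1.24 CPM. Every Asxl2-/- library lay above every wild type library, and the wild type libraries of Rab34 held 20 counts or more. The group levels were 4.02 ± 0.23 and 0.17 ± 0.34 log2 CPM (SD, n = 3 each), with a fitted log2 fold change of 3.84 (SE 0.279, 14.4-fold). Its second RefSeq transcript, NM_001159482, which starts upstream, collected 402, 979 and 331 counts in Asxl2-/- and 101, 21 and 59 in wild type libraries, largely from the same reads.

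These 3 differences were present within each kind of file. All 3 genes stood in the order of raised genes described above, which required this, so it is no separate support. In the gene-count files the mean CPM was 43.2-fold higher in Asxl2-/- cells for Evc, 34.5-fold for Evc2 and 19.2-fold for Rab34. In the exon-count files the ratios were 37.5, 55.6 and 11.8. Each of these ratios sets 3 libraries against each other with 1 library alone on 1 side, so they have no error of their own. No exon base of Evc, Evc2 or Rab34 is shared with another annotated gene, which matters because the libraries do not keep the strand of the RNA.

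**Figure D1:**
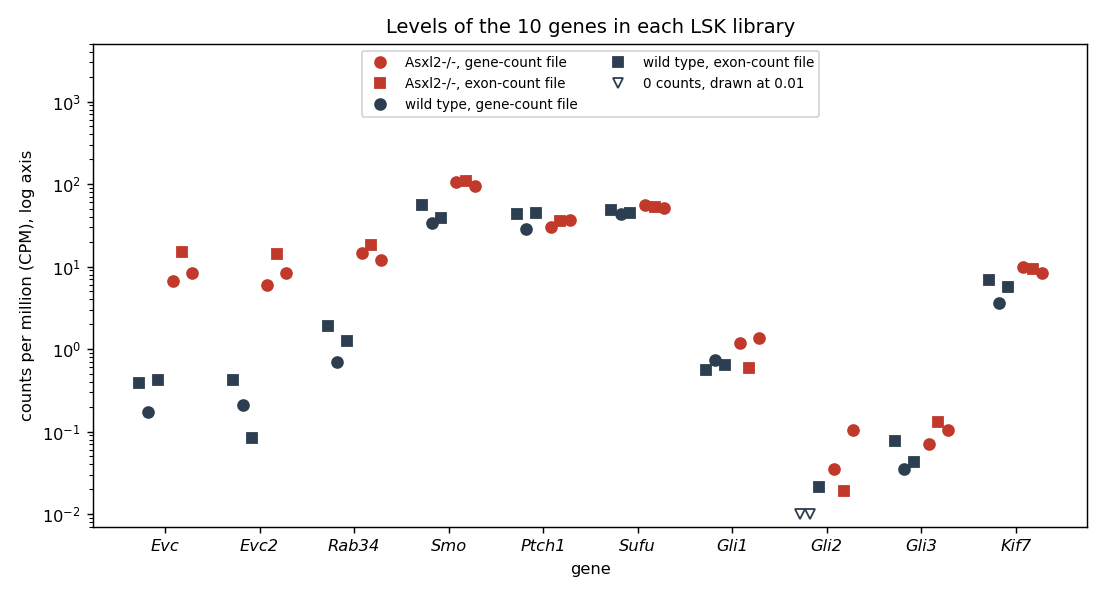
Level of each of the 10 genes (x axis) in CPM on a log axis, 1 symbol per library, with Asxl2-/- in red and wild type in dark blue, circles for gene-count and squares for exon-count files, and open triangles at 0.01 for a library with 0 counts. Red and blue symbols are apart for Evc, Evc2, Rab34, Smo, Sufu and Kif7, mix for Ptch1 and Gli1, and stay at or below 0.132 CPM for Gli2 and Gli3. How many of all genes have groups apart in this way was not counted.

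Smo, the transducer that the EvC complex binds, was the only member added for its role that passed the test. Smo (NM_176996, chromosome 6, 29735497 to 29761366, 12 exons) was counted 2952, 5733 and 2679 times in Asxl2-/- libraries 1 to 3, and 2869, 962 and 1862 times in wild type libraries 1 to 3. Its levels were 105, 108 and 94.4 CPM against 55.1, 33.4 and 39.3 CPM. The Asxl2-/- libraries lay close together and all above the wild type libraries. On the log2 CPM scale Smo stood at 6.72 ± 0.13 in Asxl2-/- and 5.33 ± 0.26 in wild type cells (SD, n = 3 each). It rose by a log2 fold change of 1.38 (SE 0.170, 2.60-fold, adjusted p = 0.0238 by edgeR's quasi-likelihood test over all 14145 genes). Within the gene-count files the ratio of mean CPM was 2.98, and within the exon-count files 2.28. The call depended on which libraries were in the fit. Without Asxl2-/- replicate 2 the adjusted p was 0.0214 and without wild type replicate 1 it was 0.0186, both past the threshold. Without Asxl2-/- replicate 1 the adjusted p was 0.0912, without Asxl2-/- replicate 3 it was 0.0613, without wild type replicate 2 it was 0.0728 and without wild type replicate 3 it was 0.122, with log2 fold changes of 1.19 to 1.58 over all 6 omissions.

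Over all genes, 331 of 14145 passed the same test (2.34%), 288 raised (2.04%) and 43 lowered (0.304%) in Asxl2-/- cells, and 3912 (27.7%) had an unadjusted p under 0.05. Of the 7 members added for their role, 5 could be tested, 1 was raised, none was lowered and 3 had an unadjusted p under 0.05. DESeq2 called 2 of these 5 and limma-voom 1. Over all 14145 genes DESeq2 called 2302, 1174 raised and 1128 lowered, and limma-voom 430. Every DESeq2 or limma-voom count given for a list stands against these larger backgrounds. The count over all genes moved with single libraries, from 9 without wild type replicate 3 and 16 without Asxl2-/- replicate 1 to 1312 without wild type replicate 1. The share of all genes whose groups do not overlap was not counted. Groups said here to be apart are therefore a description, and for Evc, Evc2 and Rab34 this also follows from their choice.

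Ptch1, the receptor that holds Smo back and is itself a target of the pathway, showed no detectable difference. Ptch1 (NM_008957, chromosome 13, 63511533 to 63565520, 23 exons) had 840, 1897 and 1047 counts in Asxl2-/- and 2254, 823 and 2128 in wild type libraries. These were 29.8, 35.6 and 36.9 CPM against 43.2, 28.6 and 44.9 CPM. The groups overlapped, with the lowest and the highest values both in wild type cells. Its log2 fold change was -0.05 (SE 0.160, edgeR adjusted p = 0.883). The within-file differences had opposite signs, 0.21 by gene-count files and -0.31 by exon-count files.

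Gli1, the other classical target and an activator of the pathway, was low in every library. Gli1 (NM_010296, chromosome 10, 127329882 to 127341579, 13 exons) had 33, 31 and 39 counts in Asxl2-/- and 29, 21 and 30 in wild type libraries. At 1.17, 0.583 and 1.37 CPM against 0.556, 0.729 and 0.633 CPM, the groups overlapped. The log2 fold change was 0.38 (SE 0.380, edgeR adjusted p = 0.545). No difference of Gli1 was detectable at these counts. A stretch of 62 exon bases of Gli1 (1.69%) is shared with Arhgap9.

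The other Gli factors were at the floor of the measurement. Gli2 (NM_001081125, chromosome 1, 118834061 to 119053619) had 1, 1 and 3 counts in Asxl2-/- and 0, 0 and 1 in wild type libraries. Gli3 (NM_008130, chromosome 13, 15463723 to 15730025), mostly a repressor, had 2, 7 and 3 counts against 4, 1 and 2. No library held more than 7 counts of either gene, neither was fitted, and no fold is given for them.

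Sufu and Kif7 act between Smo and the Gli factors, and neither passed the threshold. Sufu (NM_015752, chromosome 19, 46396896 to 46488804, 12 exons), which tethers the Gli factors in the cytoplasm, had 1560, 2793 and 1462 counts in Asxl2-/- and 2536, 1241 and 2097 in wild type libraries. Its levels were 55.4, 52.5 and 51.5 CPM against 48.7, 43.1 and 44.2 CPM. Every Asxl2-/- library lay above every wild type library by a small margin, and the log2 fold change was 0.24 (SE 0.0931, edgeR adjusted p = 0.162, unadjusted p = 0.0394). Kif7 (NM_001291222, chromosome 7, 79698098 to 79714186, 18 exons), the kinesin that organises the ciliary tip, had 279, 495 and 236 counts against 358, 105 and 267. At 9.90, 9.30 and 8.32 CPM against 6.87, 3.65 and 5.63 CPM the groups again did not overlap. The difference for Kif7 was 0.93 in log2 units (SE 0.238, edgeR adjusted p = 0.0867, unadjusted p = 0.00742), with an adjusted p of 0.0118 by DESeq2. Ticrr overlaps 48 exon bases of Kif7 (1.06%).

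Per kilobase of transcript, the levels were ordered in the gene-count files alone, where spliced reads are counted alike. In wild type replicate 2, the 1 wild type library of this kind, the order ran from Sufu (9.53 CPM per kb), Smo (8.40) and Ptch1 (6.64) to Kif7 (0.806), Rab34 (0.404), Gli1 (0.199), Evc2 (0.0507) and Evc (0.0403). In Asxl2-/- replicates 1 and 3, Smo stood at 26.3 and 23.7 CPM per kb, Sufu at 12.2 and 11.4, Rab34 at 8.56 and 6.92, Ptch1 at 6.92 and 8.57, and Kif7 at 2.19 and 1.84. Evc at 1.56 and 1.92 and Evc2 at 1.46 and 2.04 CPM per kb were at about the level of Kif7, above Gli1 at 0.320 and 0.375. Rab34 and Ptch1 exchanged places between these Asxl2-/- libraries, and the order among Kif7, Evc and Evc2 also turned, so those neighbours are not ordered beyond their spread. Evc and Evc2 thus stood at percentiles 52.1 to 55.1 of all 24063 symbols in Asxl2-/- replicates 1 and 3 and at 37.9 and 38.8 in wild type replicate 2, where the many symbols without counts fill the lowest places. Sufu and Smo are not ordered in wild type cells, since in the exon-count files Smo had 13.8 and 9.87 CPM per kb in replicates 1 and 3 and Sufu 10.8 and 9.77. Smo stood at percentile 68.6 in wild type replicate 2 and at 85.8 and 84.1 in Asxl2-/- replicates 1 and 3.

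The exon-count files show where along each transcript the counts lay. In Asxl2-/- replicate 2, counts fell in all 21 exons of Evc (17 to 147 each), in all 20 exons of Evc2 (19 to 83) and in all 10 exons of Rab34 (69 to 183). Smo, Ptch1, Sufu and Kif7 likewise had counts in every exon of all 3 exon-count libraries. In wild type replicates 1 and 3, Evc had counts in 12 of 21 exons each, with 4 counts at most in an exon, and Evc2 in 13 and 4 of its 20 exons. Rab34 had counts in all 10 exons of both wild type libraries, 7 to 14 in replicate 1 and 2 to 9 in replicate 3.

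Within Evc, exons 1 to 7 (1027 bases, 23.8% of the transcript) held 170 of 803 counts in Asxl2-/- replicate 2, or 21.2% (Wilson 95% interval 18.5 to 24.1), and 0 of 20 in each wild type library. The Wilson upper limit for 0 of 20 is 16.1%. Taken as 3 counts of the total, the limit is 15% in each library and 7.5% for 0 of 40 in both together. These exons were singled out after the values were seen, so no test is given. Spliced reads enter several exons, so these counts are not independent molecules, and intervals and limits cover counting error only.

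The share of counts in the 5′ exons, a measure the choice of the genes did not use, was set against that of another library with Fisher's exact test, two-sided. Exons 1 to 10 of 21 held 36.1% of the Evc counts in Asxl2-/- replicate 2 (290 of 803), 20% in wild type replicate 1 (4 of 20, exact p = 0.162) and 35% in replicate 3 (7 of 20, exact p = 1). For Evc2, exons 1 to 10 of 20 held 41.0% (307 of 749), 27.3% (6 of 22, exact p = 0.271) and 0% (0 of 4, Wilson 95% interval 0 to 49.0%), the last from too few counts for any share to pass after adjustment. For Rab34, exons 1 to 5 of 10 held 48.1% (474 of 985), 52.5% (52 of 99, exact p = 0.460) and 42.4% (25 of 59, exact p = 0.423). Among the other comparisons no share differed detectably, with adjusted p-values of 0.610 to 1 over the 9 tests including those between the wild type libraries. Intervals in the wild type libraries were wide for Evc (8.07 to 41.6% and 18.1 to 56.7%), and the tests compare libraries, 1 of them Asxl2-/-, and not conditions.

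Rab34 has annotated starts 321 bases apart that lead to different first exons. The first exon of NM_033475 (chr11:78188748-78189390, 643 bases) had 80 counts in Asxl2-/- replicate 2 and 11 and 2 in wild type replicates 1 and 3. That of NM_001159482 (chr11:78188427-78188511, 85 bases) had 12 counts against 4 and 2. Both first exons had counts in all 3 libraries, but the 2 counts of each in wild type replicate 3 were below the 3 taken as the smallest signal. The wild type counts were too few to compare their use.

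**Figure D2:**
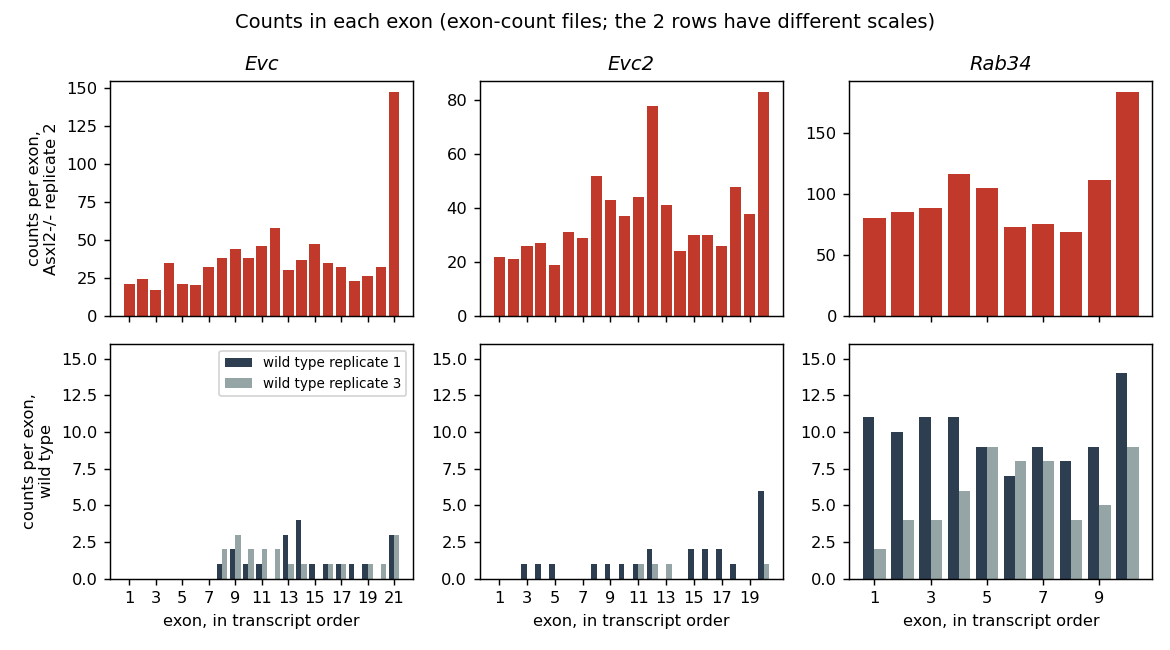
Counts in each exon (y axis) along Evc, Evc2 and Rab34 in transcript order (x axis), with Asxl2-/- replicate 2 above and wild type replicates 1 (dark) and 3 (grey) below on their own scale. In the Asxl2-/- library all exons of the 3 genes have counts, and in the wild type libraries only Rab34 has counts in every exon. The first Evc exon with a count in the wild type libraries is exon 8, with 20 Evc counts in each, too few to place a start.

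Genes next to Evc, Evc2 and Rab34 were examined to see whether they moved with them. Within 300 kb of Evc and Evc2 lie 3 other genes, of which 2 were fitted and none was called (none at an unadjusted p under 0.05, and none by DESeq2 or limma-voom). Crmp1, a cytoskeletal regulator 7008 bases from Evc, had 13, 5 and 6 counts in Asxl2-/- and 29, 5 and 15 in wild type libraries, and a difference of -0.67 in log2 units (edgeR adjusted p = 0.665). Jakmip1, 173873 bases away, had a log2 fold change of 0.30 (edgeR adjusted p = 0.496), and Stk32b, on the side of Evc2, had too few counts to be fitted.

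Around Rab34, 33 genes lie within 300 kb and 24 were fitted. None was called by edgeR or limma-voom, 1 (Supt6) had an unadjusted p under 0.05 and was the 1 called by DESeq2, as lowered, and the median log2 fold change was -0.06, with a range of -0.85 to 1.05. Proca1, 1199 bases from the 3′ end of Rab34, had 15, 20 and 18 counts in Asxl2-/- and 17, 5 and 9 in wild type libraries, and a difference of 1.05 in log2 units (SE 0.525, edgeR adjusted p = 0.244). Scaled to library size these were 0.532, 0.376 and 0.635 CPM against 0.326, 0.174 and 0.190 CPM, so its groups did not overlap, and the difference did not pass the threshold. Rpl23a, a ribosomal protein gene 5164 bases on the other side, had a log2 fold change of -0.06, its intronic Snord42b -0.50, and Supt6, a transcription elongation factor 14556 bases away, -0.29 (edgeR adjusted p = 0.132).

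**Figure D3:**
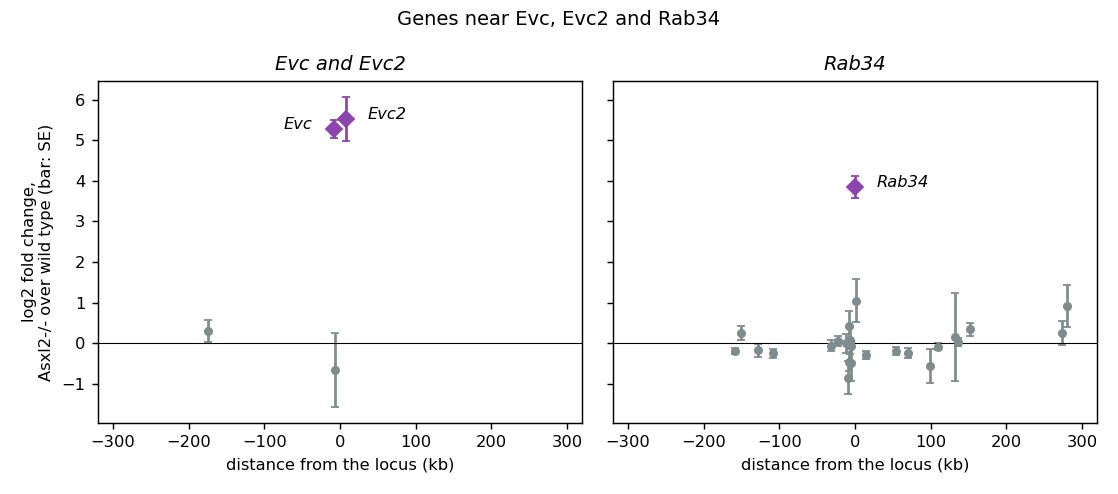
Log2 fold change (Asxl2-/- over wild type, bars are SE) of the fitted genes within 300 kb of Evc and Evc2 (left) and of Rab34 (right) against distance in kb, with the chosen genes as purple diamonds. The neighbours lie between -0.85 and 1.05, and Evc, Evc2 and Rab34 at 5.28, 5.53 and 3.84.

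The wider pathway was read from a list of 41 Hedgehog genes without Evc, Evc2 and Rab34, of which 31 were fitted. Smo was the 1 gene raised, no gene was lowered, and 9 (29.0%) had an unadjusted p under 0.05 against 27.7% of all genes. The count of 1 in 31 (3.23%) stands beside the background of 2.34%. The median log2 fold change was 0.17, with 24 of 31 above 0 (77.4%), beside a median of 0.00 and 50.1% above 0 over all genes fitted. DESeq2 called 7 of the 31, 6 raised and 1 lowered, and limma-voom 1, beside 2302 and 430 of all 14145 genes. The call of Smo, and with it the count of the list, fell to 0 without Asxl2-/- replicate 1, Asxl2-/- replicate 3, wild type replicate 2 or wild type replicate 3, and the count was 3 without wild type replicate 1.

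By role, ligand genes were nearly silent. Shh had 0 counts in every library, Ihh, Dhh and Scube2 were also too low to be fitted, and of the genes for ligand processing and release Hhat and Disp1 had log2 fold changes of 0.25 and 0.23 (edgeR adjusted p = 0.520 and 0.380), with none of the 3 fitted ligand genes called by edgeR, DESeq2 or limma-voom or at an unadjusted p under 0.05. Among receptors, the co-receptors Boc (1.13, edgeR adjusted p = 0.287) and Cdon (0.12, 0.753) did not pass, and Hhip and Gas1 were too low to be fitted. Iqce and Efcab7, which anchor the EvC complex at the ciliary base, had log2 fold changes of 0.38 (SE 0.0888, edgeR adjusted p = 0.0758) and -0.45 (edgeR adjusted p = 0.200). Neither passed, 1 had an unadjusted p under 0.05 and DESeq2 called 1.

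Of 17 fitted genes of the transduction step, 14 lay above 0, none was called by edgeR or limma-voom, 6 had an unadjusted p under 0.05 and DESeq2 called 4. Gpr161, a ciliary receptor that restrains the pathway through protein kinase A, had 101, 110 and 87 counts in Asxl2-/- and 55, 27 and 36 in wild type libraries. Its groups did not overlap, and its log2 fold change was 1.49 (SE 0.312, edgeR adjusted p = 0.0660). Arrb2, the arrestin that helps move Smo, had 0.42 (edgeR adjusted p = 0.0926) and Kif7 is given above. Among targets, 7 were fitted, none was called by edgeR, 1 had an unadjusted p under 0.05 and DESeq2 called 1. Mycn had a log2 fold change of 1.46 (edgeR adjusted p = 0.0647), Bcl2 0.33 (0.197) and Ccnd2 -0.16. Gli1 and Ptch1, the targets most often read as a measure of Gli activity, are given above.

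**Figure D4:**
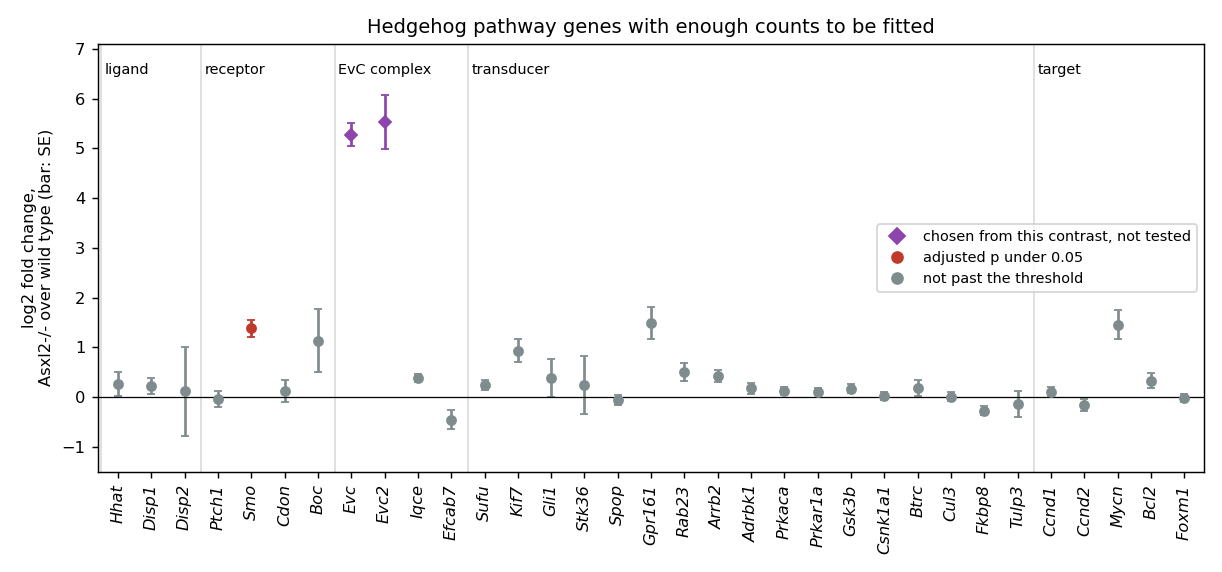
Log2 fold change (Asxl2-/- over wild type, bars are SE) of each fitted Hedgehog pathway gene, grouped by role along the x axis. Smo (red, 1.38) is the tested gene past the threshold, Evc and Evc2 (purple, 5.28 and 5.53) were chosen from this contrast, and most others (grey) lie near 0.

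The cilium itself was examined with 77 genes of intraflagellar transport (the traffic along the axoneme), the BBSome (a membrane cargo adaptor), the transition zone (the gate at the base) and other steps of ciliogenesis. All 77 were fitted, and 1 was raised (1.30%, beside 2.34% of all genes), none was lowered and 25 (32.5%) had an unadjusted p under 0.05. DESeq2 called 14 of them, all raised, and limma-voom 2. Over all 14145 genes DESeq2 called 2302, of which 1174 were raised, and limma-voom 430. Their median log2 fold change was 0.16, with 58 of 77 above 0 (75.3%), beside 0.00 and 50.1% over all genes. With library size as the only scaling the median of all genes itself moved to 0.10 and 68 of the 77 lay above 0. Over all alternatives 54 to 68 of the list were above 0, with a median of 0.11 to 0.26.

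The gene raised was Ttc21b, a retrograde transport protein of the cilium, with 769, 1938 and 754 counts in Asxl2-/- and 1172, 482 and 904 in wild type libraries. Its log2 fold change was 0.75 (SE 0.111, edgeR adjusted p = 0.0338). Its call was lost without any single library other than wild type replicate 1, with adjusted p-values of 0.0814 to 0.149, and also without the file kind as covariate (0.120) and with library size only (0.0549). The count of the ciliary list was 0 without Asxl2-/- replicate 1, Asxl2-/- replicate 3, wild type replicate 2 or wild type replicate 3, and 3 without Asxl2-/- replicate 2 or wild type replicate 1. Of the other transport genes Hspb11 had 0.92 (edgeR adjusted p = 0.0515) and Dync2h1 0.67 (0.0524), and 21 of the 27 lay above 0, with a median of 0.33.

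The remaining ciliary groups had no call by edgeR. Of 12 BBSome genes 9 lay above 0 (3 at an unadjusted p under 0.05, 2 called by DESeq2), led by Bbs1 with 1.16 (edgeR adjusted p = 0.0679). Of 17 transition zone genes 15 lay above 0 (6 at an unadjusted p under 0.05, 5 called by DESeq2), with Tmem231 at 0.91 (edgeR adjusted p = 0.0713) and B9d1 at 0.94 (0.0811). Of 21 other ciliogenesis genes 13 lay above 0 (4 at an unadjusted p under 0.05, 1 called by DESeq2), with Rab11a, of the vesicle traffic that feeds the growing cilium, at 0.41 (edgeR adjusted p = 0.0730).

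**Figure D5:**
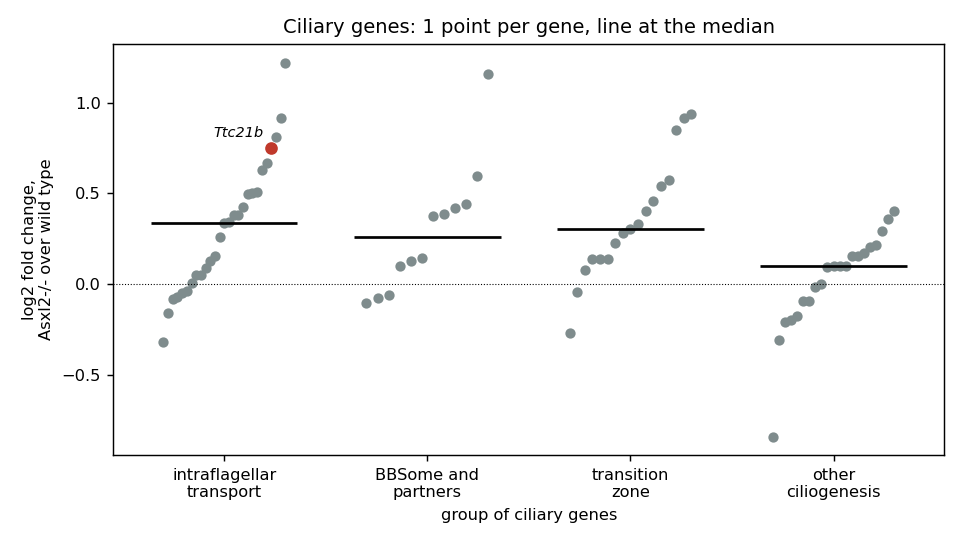
Log2 fold change (Asxl2-/- over wild type) of 77 ciliary genes in 4 groups, 1 point per gene in rising order and a black line at each group's median. Ttc21b (red, 0.75) is the gene past the threshold, and the medians lie between 0.10 and 0.33.

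Genes close to Rab34 in sequence or binding partners were read as well. Rab36, its closest paralog, had 39, 38 and 24 counts in Asxl2-/- and 40, 19 and 16 in wild type libraries, with overlapping groups and a log2 difference of 0.55 (SE 0.479, edgeR adjusted p = 0.482). Rilpl1 and Rilp, of the family that binds Rab34 on lysosomes, had log2 fold changes of 0.84 (edgeR adjusted p = 0.0969) and 0.95 (0.166). No gene of this group of 4 was called by edgeR or limma-voom, 2 had an unadjusted p under 0.05 and DESeq2 called 1.

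Across the 6 libraries, with the file kind removed, the level of Evc followed that of Rab34 (Pearson r of 0.989), Evc2 (0.974), Smo (0.966), Kif7 (0.910), Sufu (0.889) and Gli1 (0.683), and not that of Ptch1 (-0.13). These 6 points form 2 groups, and any gene that differs between the genotypes with little spread has a high r, so the values are a description. The genes outside the 10 with the highest r were Spef1, a microtubule protein of motile cilia, for Evc (0.9995, log2 fold change 1.04), followed by Cpeb4 and Aifm2 (both 0.999, log2 fold changes 0.30 and 0.65). For Rab34 they were Aak1, Map2k5 and Pld1 (0.9997 to 0.9999, log2 fold changes 0.25, 0.14 and 1.39). All 6 had changes far smaller than those of Evc and Rab34 themselves.

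Evc, Evc2 and Smo are known from cartilage, bone and stroma, so markers of other cells that a marrow sort could hold were summed in each library. The 10 stromal markers summed to 323, 148 and 168 CPM in Asxl2-/- and 206, 48.5 and 121 CPM in wild type replicates 1, 2 and 3, with 67.4% to 87.8% of each sum from Col1a1 and Col1a2. All 10 had a log2 fold change above 0, with a median of 1.25, beside 0.00 over all genes. None of the 10 was called by edgeR, DESeq2 or limma-voom or had an unadjusted p under 0.05 by edgeR. The groups overlapped. Among the exon-count files the sum was 206 and 121 CPM in wild type replicates 1 and 3 and 148 CPM in Asxl2-/- replicate 2. Evc was at 0.384, 0.422 and 15.1 CPM there. Among the gene-count files the sum was 48.5 CPM in wild type replicate 2 and 323 and 168 CPM in Asxl2-/- replicates 1 and 3. In these Evc was at 0.174, 6.71 and 8.28 CPM. The 10 bone and cartilage markers summed to 13.8, 9.83 and 9.91 CPM against 5.60, 2.54 and 4.11 CPM. These groups did not overlap, 4 of the 10 were fitted and 1 was raised, the alkaline phosphatase Alpl (197, 410 and 194 counts against 91, 55 and 87, log2 fold change 1.98, edgeR adjusted p = 0.0151). Alpl alone made up 6.99, 7.70 and 6.84 CPM of the sums against 1.75, 1.91 and 1.83 CPM. Without Alpl the sums of the 2 genotypes overlapped. The cartilage matrix gene Acan had at most 3 counts in a library.

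Endothelial markers summed to 179 to 231 CPM in Asxl2-/- and 153 to 204 CPM in wild type cells (0 of 9 called by edgeR, 4 at an unadjusted p under 0.05, 2 called by DESeq2), with Cldn5 at 3 counts or fewer. Neural markers summed to 93.7 to 214 and 161 to 173 CPM (0 of 8 called by edgeR, 1 at an unadjusted p under 0.05, 1 called by DESeq2). Megakaryocyte markers summed to 366 to 909 and 193 to 403 CPM (5 of 10 raised by edgeR, 9 at an unadjusted p under 0.05, 9 called by DESeq2). In the gene-count files these were 438 and 366 CPM in Asxl2-/- and 193 CPM in wild type cells. In the exon-count files they were 909 CPM in Asxl2-/- and 403 and 259 CPM in wild type cells. B-lymphoid markers summed to 210 to 249 and 47.5 to 71.5 CPM (9 of 10 raised by edgeR, 10 at an unadjusted p under 0.05, 10 called by DESeq2). The B-lymphoid sums did not overlap between the genotypes. Erythroid markers summed to 546 to 925 and 1192 to 1711 CPM (0 of 10 called by edgeR, 5 at an unadjusted p under 0.05, 5 called by DESeq2, all 5 lowered), also without overlap. No marker was at 0 in all libraries. The part of these other cells, and of sex, in the levels of Evc, Evc2, Rab34 and Smo was not tested.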

How the data were processed

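The members and gene lists were chosen with earlier results of these data known. The authors deposited raw counts of reads on mm10 RefSeq transcripts from poly(A)-selected, unstranded libraries, per transcript in 3 libraries and per exon in the other 3. The submitters' processing notes name STAR, featureCounts and DESeq2, with no role or version, and the methods name Cuffdiff, which needs reads and was not run. Of 33068 transcript lines, 1 transcript per symbol was kept (longest summed exon length, then lowest accession), and exon counts were summed. Counts were tested with edgeR 4.0.16 in R 4.3.3 (TMM, filterByExpr, glmQLFit and glmQLFTest, file kind plus genotype, 3 residual degrees of freedom, two-sided, Benjamini-Hochberg over all genes fitted, threshold 0.05). SEs come from the F statistic. The log2 CPM used a prior count of 2. Alternatives were DESeq2 1.42.0, limma-voom 3.58.1, other scalings, filters and covariates, another transcript choice, a replicate block, each file kind alone and leaving out each library. Exon shares used scipy 1.17.1 with Wilson 95% intervals. The study names 3 biological replicates per group. Genes named from lists were those with the smallest p, called genes first, up to 3 per list, with the genes at either side of a locus, those most alike and Rab36. Depth limits the lowest genes: 3 counts were 0.0564 to 0.106 CPM. Sequences and promoter windows are from RefSeq tables.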

Additional observations from a re-analysis of the deposited data

How the results depend on the processing

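Against 331 genes called over all 14145 genes, the count was 2302 with DESeq2, 430 with limma-voom and 161 with library size only. For the pathway, DESeq2 called 2 of the members added for their role, 7 Hedgehog and 14 ciliary genes. Library size only gave 0 ciliary genes and limma-voom 2, and without the file kind as covariate there were 3 Hedgehog and 0 ciliary genes. Leaving out each library in turn gave 9 to 1312 genes in all (16 without Asxl2-/- replicate 1, 659 without replicate 2, 96 without replicate 3, 1312, 124 and 9 without wild type replicates 1, 2 and 3), 0 to 1 of the members added for their role, 0 to 3 Hedgehog genes and 0 to 3 ciliary genes. The log2 fold changes were 4.78 to 5.40 for Evc and 4.79 to 6.17 for Evc2 over the alternatives that gave a value. The filter of at least 10 counts in every library removed both genes. For Rab34 the range was 3.53 to 4.25 over every alternative. Evc, Evc2 and Rab34 were chosen as raised from these same libraries, so their unchanged sign is no separate support. The log2 fold changes of Smo (1.19 to 1.58), Sufu (0.18 to 0.34) and Kif7 (0.57 to 1.32) stayed above 0 in every alternative. Ptch1 turned to 0.052 with library size only and to 0.21 in the gene-count files alone, with -0.30 to 0.22 when a library was left out, and Gli1 to -0.025 in the exon-count files alone, with -0.024 to 0.80 when a library was left out. The cause of these shifts was not tested. Without the last exon the 5′ shares in Asxl2-/- replicate 2 were 44.2% for Evc, 46.1% for Evc2 and 59.1% for Rab34, and with the last exon 36.1%, 41.0% and 48.1%.

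Deviations from the group means of same-numbered libraries correlated at 0.29, -0.0077 and -0.0028. Same-numbered libraries were always of different file kinds, and the file kind was not removed for these values. Whether replicate numbers pair the samples can therefore not be decided from them. A replicate block with the file kind left 1 residual degree of freedom and gave 5179 genes in all, 2 members added for their role (Smo and Kif7), 10 Hedgehog genes and 29 ciliary genes. A block without the file kind gave 2 Hedgehog genes and 0 ciliary genes.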
